A study of Bos taurus with 16 samples.

Results

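The genes described here encode collagens and other products of connective tissue cells, measured in CD14+ cells sorted from the blood and the endometrium of pregnant cows. A gene was included if its symbol on the array was that of a collagen chain, or if it was on a list of 17 genes: 6 collagen chains (COL1A1, COL1A2, COL3A1, COL5A1, COL6A1 and COL6A2), the proteoglycans LUM, DCN and BGN, the glycoproteins FBLN1, FN1, SPARC, POSTN and FSTL1, and PDGFRA, TAGLN and ACTA2. The rule used names and no measured value, but the genes were chosen with earlier results of these data known. It found 46 of the 20780 gene names on the array, which were the 17 listed genes and 29 other collagen chains, with 48 probes in all because COL1A2 and DCN had 2 probes each. The study asked how macrophages of the pregnant endometrium differ from monocytes of the blood. It compared 4 pairs of samples, 1 pair per cow, from cows at days 164, 239, 242 and 248 of pregnancy, called animals 1 to 4. Blood and endometrial RNA of a cow were labelled with different dyes and hybridised together to 2 arrays, and the 2 arrays of a cow were averaged here, so that n was 4 animals. Dyes were swapped between the arrays of animals 1, 2 and 4 but not of animal 3, whose ratios therefore kept any dye bias. The endometrial cells came from interplacentomal tissue dispersed with collagenase and were sorted on CD14 by flow cytometry. The labels gave the endometrial preparations a lower purity than those of blood. Breed and age of the cows were not given in the sources used here. Only animal 1 was at an earlier stage, so that day of pregnancy and animal could not be told apart.

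Collagens are trimers of alpha chains that form fibrils (types I, III and V), networks (type IV) or beaded filaments (type VI). Fibroblasts and endometrial stromal cells are their main source, together with the small proteoglycans that coat the fibrils and the glycoproteins that join fibrils to cells. Monocytes and macrophages are better known for taking up and degrading collagen than for making it, although FN1 and some collagen VI and VIII chains have been described in macrophages.

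Each transcript was read by a DNA probe of 60 bases, and the probes of the genes that the values below turn on are shown here from the deposited scanner files, 5′ to 3′ and in lower case, since no part of them was singled out. The probes for DCN, COL6A2 and POSTN are given whole, and those for COL1A1 and COL1A2 by their first 30 bases.
DCN, first probe: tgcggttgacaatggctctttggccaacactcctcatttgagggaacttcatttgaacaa
COL6A2: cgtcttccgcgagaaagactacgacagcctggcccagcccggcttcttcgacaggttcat
POSTN: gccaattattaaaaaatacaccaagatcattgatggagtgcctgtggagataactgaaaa
COL1A1: catctctcaaacttagtttttatctttgac
COL1A2, first probe: tggcaaaagaggagaaggattgatcagagc
COL1A2, second probe: ggtttttcactgtggtgaacgtctatgagg
Among the 48 probes, the longest run of bases shared by any pair, on either strand, was 12, as between COL1A1 and COL8A1. The files give these probes no position in the genome. In the RefSeq annotation of the cow genome (ARS-UCD2.0), where all 46 genes were found, 5 pairs of these genes lie next to each other: COL3A1 and COL5A2, COL6A1 and COL6A2, LUM and DCN, COL4A1 and COL4A2, and COL4A3 and COL4A4.

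Blood of animal 1 stood apart from the other blood samples. Over all genes tested, blood of animal 1 correlated with blood of the other 3 animals at r between 0.813 and 0.840, and the other 3 animals among themselves at r between 0.9445 and 0.9685. In endometrium the pairs with animal 1 (0.814 to 0.823) lay within the range of the other pairs (0.795 to 0.897). For CD14, the receptor the cells were sorted on, the log2 intensity in blood was 14.24, 6.30, 7.63 and 6.69 in animals 1 to 4. In endometrium it was 12.17, 6.41, 8.14 and 6.82. The CD14 probe was well above background in all 16 channels, but its level in animals 2, 3 and 4 was far below that in animal 1 in both tissues. The macrophage receptor CSF1R (13.003 in blood of animal 1 and between 6.64 and 8.13 in the others) and the lysosomal protein CD68 (10.97, against 6.95 to 7.66) were likewise highest in animal 1. Between 65.2% and 82.9% of spots were well above background in a channel, with both extremes in endometrium (animal 3 and animal 1). The values of the listed genes are therefore given per animal, and their means with and without animal 1. The scanner file attached to an array held the other array of the same animal, as a probe by probe comparison with the authors' value table showed, and was read as that other array. Read as attached, the dyes of animals 1, 2 and 4 would be exchanged, and the median log2 ratio of the 30 genes tested would be -0.37 in place of 1.07.

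Of the 46 genes, 30 passed the filter on dim probes and were tested. None of the 30 was called, which took an adjusted p of 0.05 or less (limma with Benjamini-Hochberg over all tested probes) and a difference over 2-fold, where 0.0679% of all 16189 genes tested were called higher in endometrium and none higher in blood. When the unadjusted p had to be 0.05 or less and the difference over 2-fold, 4 of the 30 were higher in endometrium (COL1A1, DCN, BGN and FSTL1), beside 5.37% of all genes. None of the 30 was higher in blood by that rule, beside 5.06% of all genes. With no limit on the fold, TAGLN was added in endometrium (5 of 30, beside 6.7% of all genes) and COL17A1 in blood (1 of 30, beside 8.59%). By size alone, 16 of the 30 had a mean ratio over 2-fold in favour of endometrium, beside 8.26% of all genes, and none had one in favour of blood, beside 7.57%. Without animal 1 the 16 became 6, beside 9.05% of all genes. Without animal 2, 3 or 4 they became 19, 16 and 18, beside 8.91%, 6.2% and 11.2%. In favour of blood there was 1 gene without animal 3 and 1 without animal 4, beside 4.59% and 11.3%. Since a gene that is high in 1 tissue passes the filter more easily, these counts describe the genes that were bright enough and not all 46. Counted in either direction, DCN alone passed the 2-fold rule at an unadjusted p without animal 1, beside 9.72% of all genes. The number was 9 without animal 2, beside 8.69%. It was 2 without animal 3 (BGN and COL17A1, beside 5.56%) and 2 without animal 4 (COL15A1 and COL17A1, beside 13.6%). Of these genes, COL17A1 was higher in blood.

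The size of the difference depended on the animal. The median log2 ratio of endometrium over blood over the 30 genes was 3.21, -0.10, 0.83 and 0.05 in animals 1 to 4, where the medians of all genes tested lay between -0.08 and -0.02. Over the 17 listed genes, all of which were tested, the medians were 4.66, -0.06, 0.90 and 0.92. The summed intensity of the 17 listed genes in endometrium was 154300, 2097, 11780 and 4769 in animals 1 to 4. In blood it was 6417, 2490, 2238 and 2147, so that endometrium of animals 2 and 4 lay below blood of animal 1 and the tissues overlapped. More than 2-fold higher in endometrium were 16 of the 17 in animal 1 (beside 11.8% of all genes), 1 in animal 2 (beside 13.3%), 8 in animal 3 (beside 19.4%) and 8 in animal 4 (beside 6.57%). More than 2-fold higher in blood were 2 of the 30 in animal 1 (COL6A2 and COL17A1, beside 11.9%), 3 in animal 2 (FN1, COL9A1 and COL17A1, beside 11.9%), none in animal 3 (beside 21.9%) and COL11A2 in animal 4 (beside 5.16%). In all 4 animals 7 of the 30 were higher in endometrium (COL1A2, COL3A1, COL4A2, COL23A1, DCN, BGN and TAGLN), beside 10.3% of all genes. As these are bulk measurements, fewer cells of a type and less RNA per cell cannot be told apart.

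**Figure D1:**
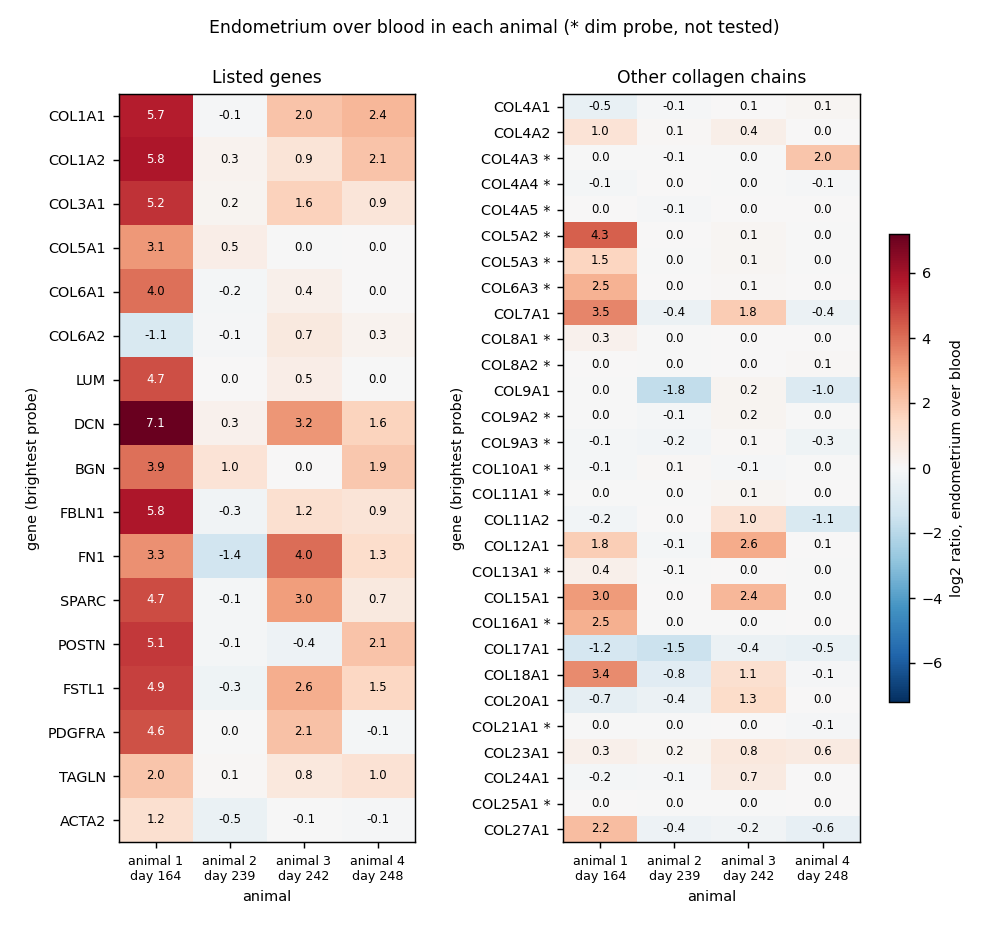
Log2 ratio of endometrium over blood for all 46 genes (rows, brightest probe of each) in each of the 4 animals (columns), printed in the cells and coloured from blue (higher in blood) to red (higher in endometrium). Genes marked with an asterisk had dim probes and were not tested. The column of animal 1 holds most of the large ratios (median 4.66 over the 17 listed genes) and that of animal 2 almost none (median -0.06).

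COL1A1 and COL1A2 encode the chains of type I collagen, the bulk of most connective tissue. The log2 intensity of COL1A1 in blood was 8.51, 6.33, 6.33 and 6.62 in animals 1 to 4, and in endometrium it was 14.17, 6.27, 8.37 and 9.02. Endometrium was higher in 3 of 4 animals, and the groups overlapped because endometrium of animals 2 and 3 lay below blood of animal 1. The mean log2 ratio of COL1A1 was 2.51 ± 2.37 (SD, n = 4), a 5.70-fold difference, with a limma adjusted p of 0.298 and an unadjusted p of 0.0355, and it was 1.46 without animal 1. COL1A2 had blood levels of 7.997, 6.17, 6.24 and 6.25 and endometrial levels of 13.82, 6.42, 7.15 and 8.32 by its first probe. Endometrium was higher in each animal, by 0.25 in animal 2 and by 5.82 in animal 1, but blood of animal 1 lay above endometrium of animals 2 and 3. Its mean log2 ratio was 2.26 ± 2.49, with a limma adjusted p of 0.342, and 1.08 without animal 1. The second COL1A2 probe was well above background in none of the 16 channels and lay between 5.96 and 6.08 throughout, so that the probes of this gene disagreed.

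COL3A1, the single chain of type III collagen, which is abundant in distensible organs such as the uterus, had endometrial levels of 12.42, 6.17, 7.64 and 6.82 and blood levels of 7.201, 5.97, 5.99 and 5.97. In blood it was well above background on the arrays of animal 1 only, and in endometrium on those of animals 1, 3 and 4. The mean log2 ratio was 1.98 ± 2.24 (SD, n = 4), with a limma adjusted p of 0.349, and 0.90 without animal 1. COL5A1, a chain of the type V collagen that sets fibril diameter, had a log2 ratio of 3.11 in animal 1 and ratios of 0.49, -0.02 and 0.04 in the others. Its endometrial level was 10.12 in animal 1 and between 6.13 and 6.79 in animals 2, 3 and 4, and the mean ratio was 0.90 with and 0.17 without animal 1 (limma adjusted p = 0.499 with it). COL5A2, its partner chain and the neighbour of COL3A1, was well above background on the arrays of animal 1 alone and was not tested. There its levels were 7.06 in blood and 11.34 in endometrium.

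The type VI chains, which assemble from 3 different subunits, had unlike values in animal 1. COL6A1 had blood levels of 6.67, 6.57, 6.38 and 6.47 and endometrial levels of 10.62, 6.41, 6.76 and 6.52, so that only endometrium of animal 1 stood above the rest. COL6A3, not tested, had a ratio of 2.496 in animal 1 and no signal well above background in the other animals. COL6A2, whose gene adjoins COL6A1, had blood levels of 9.16, 8.41, 8.53 and 8.34 and endometrial levels of 8.08, 8.31, 9.21 and 8.60. It was the only listed gene that was lower in endometrium of animal 1 than in its blood, with a log2 ratio of -1.08, and its mean ratio was -0.06 ± 0.75 (SD, n = 4). The mean ratio of COL6A1 was 1.05 ± 1.94 with and 0.0899 without animal 1, and that of COL6A2 was 0.28 without it. The limma adjusted p was 0.531 for COL6A1 and 0.963 for COL6A2. The difference between the chains in animal 1 was seen on both arrays but in 1 animal, and was not tested.

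**Figure D2:**
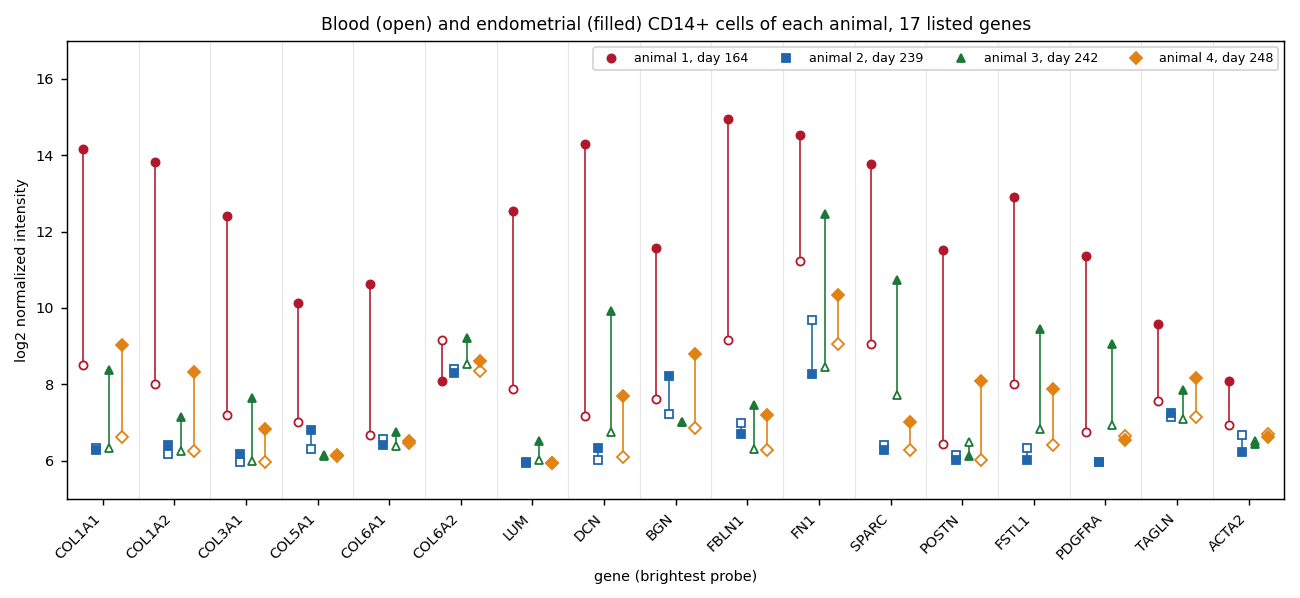
Log2 normalized intensity (y axis) of the 17 listed genes (x axis, brightest probe of each) in blood (open symbols) and endometrium (filled symbols), with a line joining the tissues of an animal and 1 colour and symbol per animal. Endometrium of animal 1 lies far above the other 7 samples for most genes, as for COL1A1 at 14.17, whereas for COL6A2 all samples lie between 8.08 and 9.21.

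DCN, LUM and BGN encode decorin, lumican and biglycan, small leucine-rich proteoglycans that bind collagen fibrils. DCN had blood levels of 7.18, 6.03, 6.75 and 6.10 and endometrial levels of 14.29, 6.34, 9.93 and 7.71 by its first probe. Endometrium was higher in each animal, and the only overlap came from animal 2, whose endometrium lay below the blood of animals 1 and 3. The log2 ratio was 3.05 ± 2.95 (SD, n = 4), the largest mean of the 46 genes, with a limma adjusted p of 0.303 and an unadjusted p of 0.0376, and it was 1.70 without animal 1. The second DCN probe gave 5.45, -0.06, 2.12 and 0.03 in animals 1 to 4, against 7.11, 0.31, 3.17 and 1.61 by the first, so that the probes had the same order of animals 1 and 3 but only the first had a difference in animal 4. BGN had blood levels of 7.62, 7.21, 7.00 and 6.85 and endometrial levels of 11.57, 8.21, 7.03 and 8.79. It was the only listed gene over 2-fold higher in endometrium of animal 2, and in animal 3 the tissues differed by 0.02. Its log2 ratio was 1.73 ± 1.67, with a limma adjusted p of 0.311 and an unadjusted p of 0.0420, and 0.99 without animal 1. LUM, the neighbour of DCN, reached 12.55 in endometrium and 7.89 in blood of animal 1 and was between 5.93 and 6.51 in the other 6 samples. In animal 3 its log2 ratio was 0.48 against a blood signal that was not well above background, and 3.66 with the authors' values. The mean was 1.29 ± 2.26 with and 0.16 without animal 1, and the limma adjusted p was 0.510.

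Among the glycoproteins, FN1 encodes fibronectin, which links collagen to integrins. FN1 had blood levels of 11.23, 9.67, 8.45 and 9.05 and endometrial levels of 14.54, 8.27, 12.46 and 10.34. Of the 17 listed genes only FN1 and COL6A2 had their highest ratio in animal 3 (4.02 for FN1, against 3.31 in animal 1), and FN1 had the lowest ratio of the 17 in animal 2 (-1.41). The mean was 1.80 ± 2.43 (SD, n = 4), with a limma adjusted p of 0.407, and 1.30 without animal 1. SPARC, which encodes osteonectin, a collagen-binding protein, had blood levels of 9.05, 6.40, 7.72 and 6.28 and endometrial levels of 13.77, 6.28, 10.72 and 7.00. Its mean log2 ratio was 2.08 ± 2.20, with a limma adjusted p of 0.333, and 1.20 without animal 1. FSTL1, a secreted relative of follistatin, had blood levels of 8.01, 6.34, 6.83 and 6.41 and endometrial levels of 12.91, 6.03, 9.45 and 7.87. In animal 2 its endometrial signal was not well above background, and the mean ratio was 2.17 ± 2.19, with a limma adjusted p of 0.318 and an unadjusted p of 0.0450, and it was 1.26 without animal 1.

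FBLN1, or fibulin-1, a component of elastic fibres and basement membranes, had the highest ratio of the glycoproteins in animal 1, with 9.16 in blood and 14.96 in endometrium. In animals 2, 3 and 4 the FBLN1 ratios were -0.28, 1.17 and 0.92, and the limma adjusted p was 0.420. Its mean was 1.90 ± 2.67 with and 0.60 without animal 1. POSTN, or periostin, a matrix protein of remodelling tissue, had endometrial levels of 11.51, 6.01, 6.12 and 8.09 and blood levels of 6.43, 6.14, 6.48 and 6.02. Endometrium was higher in animals 1 and 4 only, which sets POSTN apart from SPARC, FN1 and FSTL1, for which animal 3 was second or first. The mean log2 ratio of POSTN was 1.66 ± 2.53, with a limma adjusted p of 0.449, and 0.52 without animal 1.

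PDGFRA, the receptor for platelet-derived growth factor that marks fibroblasts, had endometrial levels of 11.35, 5.97, 9.05 and 6.54 and blood levels of 6.76, 5.97, 6.94 and 6.66. The ratio was 4.59 in animal 1, 2.12 in animal 3 and close to 0 in animals 2 and 4. In animal 2 PDGFRA was well above background in neither tissue, so that its ratio there compares signals at background. The mean ratio of PDGFRA was 1.64 ± 2.21 with and 0.66 without animal 1. TAGLN and ACTA2 encode transgelin and smooth muscle actin, contractile proteins of smooth muscle and myofibroblasts. TAGLN had blood levels of 7.55, 7.13, 7.10 and 7.16 and endometrial levels of 9.58, 7.24, 7.86 and 8.17. It was higher in endometrium in each animal, with a small spread (0.98 ± 0.80, SD, n = 4), a limma adjusted p of 0.302 and an unadjusted p of 0.0372, but its 1.97-fold difference stayed under 2-fold. The mean of TAGLN was 0.63 without animal 1. ACTA2 had ratios of 1.15, -0.46, -0.05 and -0.10, and its mean turned from 0.13 to -0.21 when animal 1 was left out. The limma adjusted p was 0.408 for PDGFRA and 0.884 for ACTA2.

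**Figure D3:**
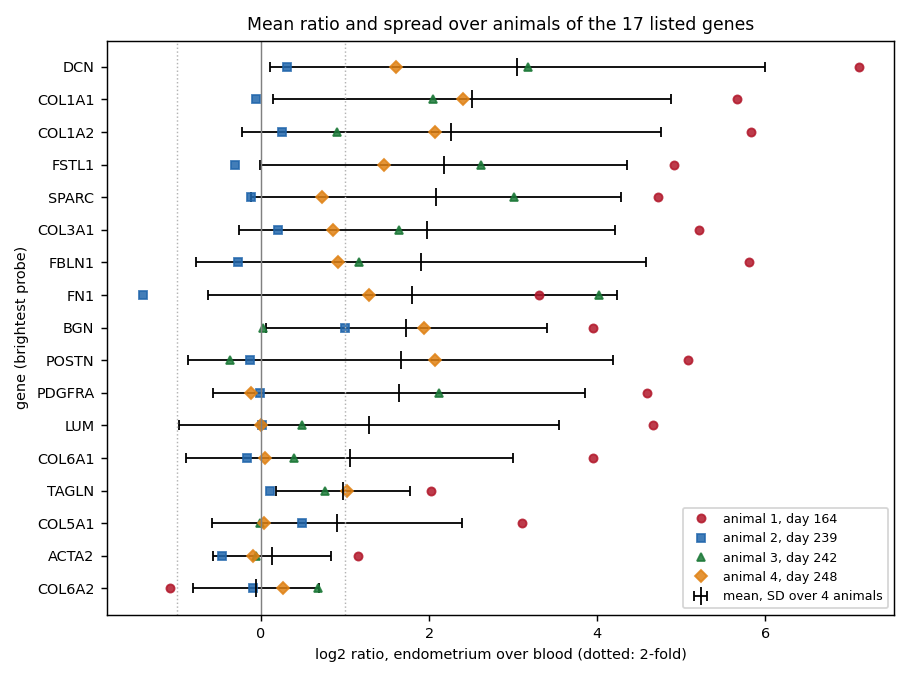
Log2 ratio of endometrium over blood (x axis) of the 17 listed genes (y axis, ordered by mean), with a symbol per animal, a black bar for the mean and whiskers for the SD over 4 animals. Dotted lines mark 2-fold. Animal 1 is the rightmost point for 15 of the 17 genes, and the SD of DCN (2.95) is nearly as large as its mean (3.05).

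Of the 29 other collagen chains, 13 were tested. None of the 13 passed the 2-fold rule at an unadjusted p in either direction, beside 10.4% of all genes. The median log2 ratio of the 13 was 0.26, with the range from -0.92 to 1.37, where the median of the listed genes was 1.73. Without animal 1 these medians were 0.17 and 0.66. In animals 1 to 4 the medians of the 13 were 0.35, -0.12, 0.76 and -0.02. The 6 chains COL4A1, COL7A1, COL11A2, COL17A1, COL18A1 and COL20A1 were well above background in all 16 channels. COL7A1, the anchoring fibril collagen under epithelia, had blood levels of 9.55, 7.38, 6.72 and 7.03 and endometrial levels of 13.05, 6.97, 8.56 and 6.58. COL18A1, the basement membrane collagen that yields endostatin, had ratios of 3.43, -0.80, 1.13 and -0.08. For both, endometrium was higher in animals 1 and 3 and lower in animals 2 and 4, with limma adjusted p of 0.504 and 0.566.

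COL17A1, a transmembrane collagen of epithelial anchoring junctions, was the only one of the 30 genes lower in endometrium than in blood in each animal, where 14.7% of all genes were. Its blood levels were 7.59, 9.25, 7.40 and 10.03 and its endometrial levels 6.40, 7.70, 6.96 and 9.52. The groups overlapped because animals differed more than tissues did, and animal 1 was not the highest in either tissue. The mean log2 ratio was -0.92 ± 0.54 (SD, n = 4), with a limma adjusted p of 0.272 and an unadjusted p of 0.0194. COL4A1 and COL4A2, neighbouring genes for the main chains of basement membrane collagen, had mean log2 ratios of -0.11 and 0.37, and COL4A2 was higher in endometrium in each animal, by 0.01 to 0.96. COL11A2 and COL20A1 had means of -0.07 and 0.07 with no common direction over animals. The limma adjusted p was 0.855 for COL4A1, 0.964 for COL11A2 and 0.957 for COL20A1.

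A further 4 chains are named here after their values were seen. COL12A1 and COL15A1, collagens that associate with fibrils and basement membranes, were well above background in endometrium of animals 1 and 3 alone. COL12A1 had log2 ratios of 1.80, -0.12, 2.65 and 0.05, a mean of 1.09, with a limma adjusted p of 0.389, and all 8 of its blood channels missed the background threshold. COL15A1 had ratios of 3.04, 0.05, 2.41 and -0.02. COL9A1, a cartilage collagen, ran the other way: in blood it was well above background in animals 2 and 4 (7.77 and 7.01), in endometrium in none, and its mean log2 ratio was -0.65 (limma adjusted p = 0.460). COL23A1, a transmembrane collagen, was the only one of the 30 genes whose endometrial levels (6.37 to 6.86) all lay above its blood levels (6.11 to 6.32). Of all genes 2.42% did so, and none of the 30 had the reverse, beside 3.06%. The mean log2 ratio of COL23A1 was 0.48 ± 0.26 (SD, n = 4), with a limma adjusted p of 0.369. Its levels lie near background, and the mean was 1.77 with the authors' values.

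The 16 chains that were not tested fell into groups by animal. Of these, 5 (COL4A5, COL8A2, COL11A1, COL21A1 and COL25A1) were well above background in no channel. Another 6 (COL5A2, COL5A3, COL6A3, COL8A1, COL13A1 and COL16A1) were well above background on both endometrial arrays of animal 1 and in no other animal, and 4 of the 6 were so in blood of animal 1 too. In animal 1 the log2 ratio was 4.28 for COL5A2, 2.54 for COL16A1, 2.496 for COL6A3 and 1.53 for COL5A3. Of the remaining 5 (COL4A3, COL4A4, COL9A2, COL9A3 and COL10A1), COL4A3 had a ratio of 2.02 in animal 4, where its endometrial level was 8.01, and its neighbour COL4A4 was at background there. Counting all 46 genes, 36 were well above background on both endometrial arrays of animal 1, and 22, 25 and 25 in animals 2, 3 and 4, where 95.7%, 91.2%, 78.9% and 85.9% of all genes tested were. In blood the counts were 31, 20, 19 and 23, beside 87.5%, 88.1%, 85.7% and 90.6% of all genes tested, so that blood of animal 1 had more of these genes well above background than either tissue of any other animal. The 46 include the 16 chains that failed the filter on dim probes, whereas the shares cover only genes that passed it. The counts therefore cannot be set directly against these shares, and only the animals can be compared.

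Animal 1 was highest for most of the listed genes, but fewer shared a whole order of the animals. The log2 ratio fell in the order of animals 1, 3, 4 and 2 in 7 of the 17, beside 3.34% of all genes. The log2 ratio was highest in animal 1 for 15 of the 17, and for 5 of the 13 other chains tested, where it was so for 21.6% of all genes. It was lowest in animal 2 for 11 of the 17, where it was so for 21% of all genes. The endometrial level was highest in animal 1 for 16 of the 17, and the blood level for 15 of the 17 (19% and 30.8% of all genes). These genes were measured in the same 4 animals and are not independent of each other. The paired arrays of an animal differed far less than the animals did. The median absolute difference in log2 ratio between the 2 arrays was 0.12 over the 30 genes and 0.11 over all genes, while the median SD over animals was 1.63. The largest difference between arrays was 0.74, for COL4A1 in animal 4. The arrays gave opposite signs in 16 of 120 pairs.

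**Figure D4:**
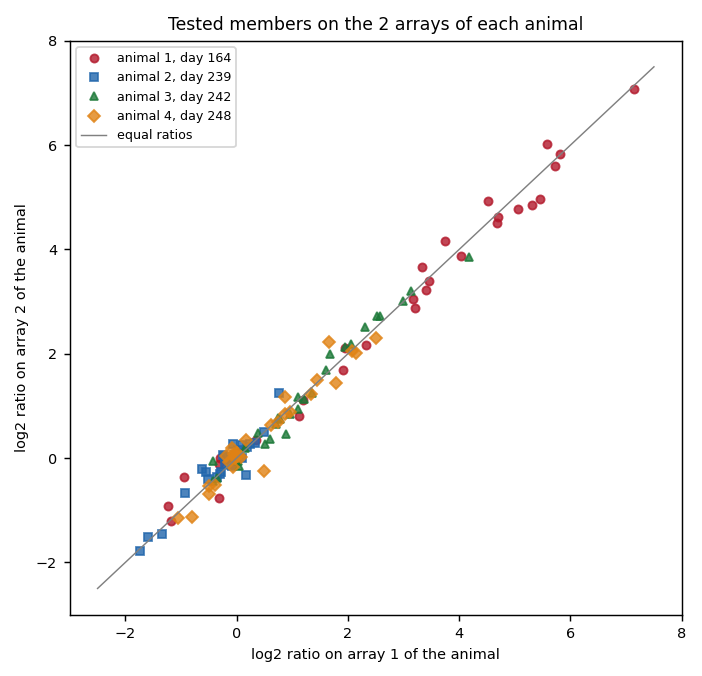
Log2 ratio of endometrium over blood of the 30 tested genes on the first (x axis) and the second array (y axis) of each animal, 1 symbol per gene and animal. The grey line marks equal ratios. Points lie near the line, with a median absolute difference of 0.12, and nearly all points above 4 belong to animal 1.

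The authors' own log2 values, made without an added offset, gave larger ratios for several genes that were dim in blood. With them the log2 ratios of COL3A1 were 6.05, 1.95, 6.31 and 5.11 in animals 1 to 4, a mean of 4.86, against 1.98 above, and those of DCN were 7.98, 2.62, 5.78 and 4.68, a mean of 5.26. Both genes then passed the adjusted threshold (limma, adjusted p = 0.0394 for each), beside 1.35% of all genes. In blood of animals 2, 3 and 4, COL3A1 was not well above background, and DCN was not in animals 2 and 4, so that the size of these ratios rests on signals near background. FN1 and COL6A2, both well above background in all 16 channels, moved little between the sets of values, with means of 1.88 and -0.06 from the authors' values and 1.80 and -0.06 above. Other genes well above background in all 16 channels moved more, such as FBLN1 (2.68, against 1.90) and COL17A1 (-1.60, against -0.92). The change was thus not limited to genes dim in blood. The median over the 30 genes was 1.64 with the authors' values and 1.07 above.

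Fibrillar collagen needs helpers to fold, to be trimmed and to be cross-linked, and 21 of 23 genes on a list of these were tested. None passed the adjusted threshold, and 5 of the 21 were over 2-fold higher in endometrium with an unadjusted p of 0.05 or less, beside the 5.37% of all genes given above. SERPINH1, which encodes the collagen chaperone HSP47, had log2 ratios of 4.97, 2.97, 3.28 and 1.97, a mean of 3.30 ± 1.24 (SD, n = 4), with a limma adjusted p of 0.194. Unlike the listed collagens it was clearly higher in endometrium of animal 2. PCOLCE2, an enhancer of procollagen cleavage, had ratios of 7.35, 0.81, 1.82 and 3.55 and a limma adjusted p of 0.276, while its relative PCOLCE had 2.90, 1.59, -1.23 and 0.53. The cross-linking enzyme LOX had 3.88, 2.64, 1.69 and -1.13 and the prolyl hydroxylase subunit P4HA2 3.85, -0.74, 2.82 and 0.40, with limma adjusted p of 0.369 and 0.407. The median over the 21 genes was 1.09, 0.37, 0.36 and 0.40 in animals 1 to 4.

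Of 27 tested genes for other matrix glycoproteins and proteoglycans, 2 were higher in endometrium and 1 higher in blood by the same unadjusted rule, beside 5.37% and 5.06% of all genes, so that these counts were near the background. The medians of 2.03, -0.11, 0.98 and 0.09 in animals 1 to 4 had the order of animals 1, 3, 4 and 2. Tenascin C (TNC) had ratios of 4.75, -0.01, 1.30 and 1.27 (limma adjusted p = 0.347). The laminin chain gene LAMC1 had 1.76, 0.79, 3.08 and 0.73 (limma adjusted p = 0.262). Elastin (ELN) had a mean of 0.01, and NID1, or nidogen, was well above background in 2 endometrial channels only and was not tested.

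Among 10 tested receptors for collagen and fibronectin, 1 was higher in endometrium by the unadjusted rule, beside 5.37% of all genes. This was DDR1, a collagen receptor kinase, with ratios of 2.57, 0.04, 2.72 and 0.53 and a limma adjusted p of 0.310. Its relative DDR2, the receptor of mesenchymal cells, was not tested, with a ratio of 1.47 in animal 1. The integrin genes ITGB1 and ITGA1 had means of -0.04 and 0.33. Of 14 tested genes of TGF-beta signalling, a pathway that raises matrix synthesis in fibroblasts, 1 was higher in endometrium and 1 in blood by that rule, beside 5.37% and 5.06%. CTGF, a matrix protein that TGF-beta induces, had ratios of 6.18, -0.38, 6.56 and 5.37, a mean of 4.43 ± 3.24 (SD, n = 4) and a limma adjusted p of 0.262. As with the listed genes, animal 2 did not share its difference. TGFB1, the ligand itself, was lower in endometrium in each animal, with a mean of -0.99 and a limma adjusted p of 0.304.

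Markers of other cells that the endometrial sort could hold were set beside these values. Of 16 tested fibroblast and smooth muscle cell markers, 4 were higher in endometrium by the unadjusted rule, beside 5.37% of all genes. The medians over the 16 were 0.63, -0.04, 0.68 and 0.46 in animals 1 to 4. The fibroblast surface protein THY1 had ratios of 3.46, 0.41, 2.36 and 0.27, the filament gene VIM had -1.86, -1.51, 0.15 and 0.31, DES had a mean of 0.13, and MYH11, a defining gene of smooth muscle, was well above background in 5 of 16 channels and was not tested. The summed intensity of the 21 marker probes ranged from 23250 to 72740 in endometrium and from 13980 to 94110 in blood. The highest sum, in blood of animal 1, came mostly from S100A4, VIM and DF. Their log2 intensities there were 15.36, 14.90 and 13.74, and that of THY1 was 7.59. The sums thus follow the brightest probes and not the list as a whole. Of 13 endothelial markers 1 was higher in endometrium by the unadjusted rule, a count near the 5.37% of all genes. This was VWF, with ratios of 1.72, 1.20, 3.87 and 0.09. PECAM1 had a mean of 0.28, and the sums of the endothelial markers were 2006 to 8791 in endometrium and 1794 to 2669 in blood.

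Of 12 tested epithelial markers 7 were higher in endometrium by the unadjusted rule, beside 5.37% of all genes. Their medians were 1.89, 1.27, 3.37 and 0.91 and were thus highest in animal 3, and their sums were 3795 to 51660 in endometrium and 1160 to 3625 in blood. KRT18 had a mean of 3.21 (limma adjusted p = 0.101), and EPCAM, listed as TACSTD1, one of 3.03 (limma adjusted p = 0.247). Of 9 tested trophoblast markers 5 passed the adjusted threshold in favour of endometrium (CSH1, PAG4, PAG7, PRP1 and PRP6), beside 0.0679% of all genes. The list medians were between 3.22 and 3.87 in all 4 animals, and the sums were 14560 to 49340 in endometrium and 1015 to 1900 in blood. Of 13 tested monocyte and macrophage markers 5 were higher in endometrium by the unadjusted rule, beside 5.37% of all genes. None was higher in blood, beside 5.06%. The markers of this list had medians of -0.66, 0.11, 0.51 and 0.93 in animals 1 to 4. Their sums were 144000 in endometrium and 141700 in blood of animal 1, against 20180 to 43320 and 7061 to 11260 in the other animals. The part of any of these cell types in the collagen and matrix values was not tested.

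**Figure D5:**
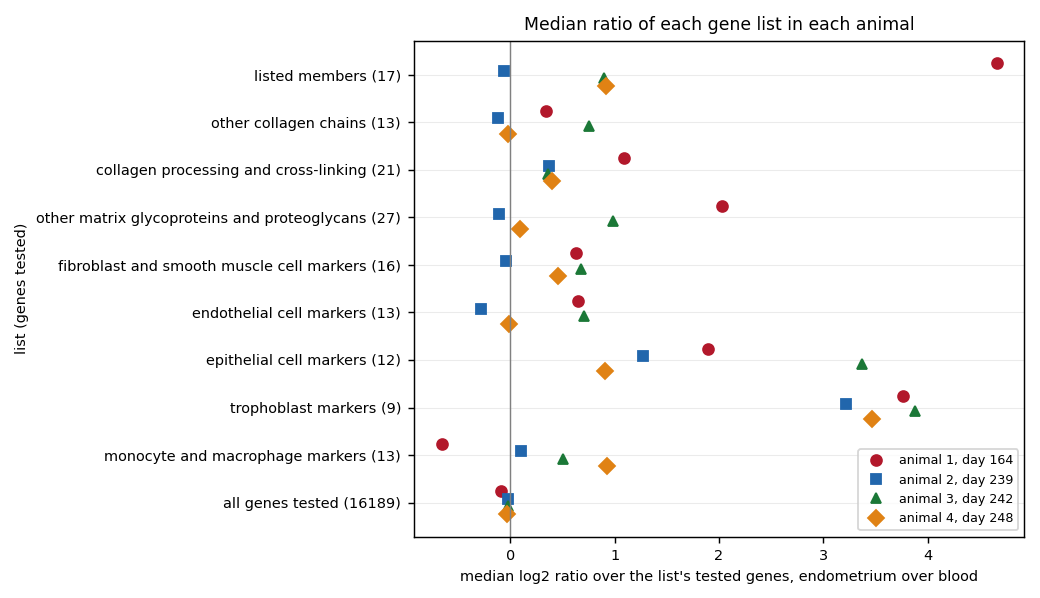
Median log2 ratio of endometrium over blood (x axis) of each gene list (y axis, with the number of genes tested) in each animal, 1 symbol per animal, shifted slightly in height so that they can be told apart. The listed collagen and matrix genes are spread from -0.06 in animal 2 to 4.66 in animal 1, whereas the trophoblast markers lie between 3.22 and 3.87 in all animals.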

How the data were processed

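The arrays were Agilent bovine 2-colour arrays of amplified RNA. The authors deposited scanner files with the intensity of each spot and its background in each dye, which were not normalized, made with Agilent Feature Extraction 9.5 per their methods. They also deposited a table of log2 values, to which the authors applied a lowess normalization per array and a quantile normalization over channels. Each column of that table was matched by rank to the channels of the same animal. For this, each processed signal of a scanner channel was replaced by the column's value of the same rank. For 100% of probes (tolerance 0.001 on the log2 scale) the column then equalled the labelled dye in the scanner file attached to the animal's other technical replicate. In any other channel of that animal at most 0.0186% did, and the files were read by that match. Groups came from the labels.

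From the median intensities, the normexp method (offset 50) removed background, followed by loess within arrays and quantiles over the 16 channels (limma 3.58.1 in R 4.3.3). Because of the offset, a log2 level near 6 is at background and the ratios of dim genes are understated. Testing was limited to probes that 4 or more of the 8 channels of 1 tissue showed well above background, and a gene was counted by its brightest probe. The log2 ratios of the 2 arrays of an animal were averaged and tested against 0 over 4 animals with limma, with Benjamini-Hochberg adjustment over all tested probes. Called genes differed over 2-fold with an adjusted p of 0.05 or less. The study's methods used an unadjusted p with the same fold and a limit on the false discovery rate, from an analysis of variance. An exact test over 4 pairs cannot go below p = 0.125, and the 4 animals limit the precision of each ratio. Blood and endometrium were paired because they came from the same animal, and their deviations from the tissue means correlated at 0.617, 0.366, 0.210 and 0.464 in animals 1 to 4. The scripts were tested on simulated data.

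The genes, lists and named genes were chosen with earlier results of these data known. Named were the 17 listed genes, other chains that passed 2-fold at an unadjusted p or were well above background in all channels, and a fixed set from the pathway and marker lists, of which P4HA1, LAIR1, MRC2, TGFBR2, VCAN, THBS1 and PDGFRB were not found on the array under those names. Another gene of that set is not reported here. Alternatives were the background correction, the normalization, the filter, the probe rule, each slide, the block and each animal left out.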

Additional observations from a re-analysis of the deposited data

Results flagged for a closer look

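In 3 genes the log2 ratio of animal 1 lay farther from those of the other animals than Dixon's critical value for 4 samples allows. COL5A1 had a ratio of 3.11 in animal 1 and -0.02 to 0.49 in the others. COL6A1 had 3.95, against -0.16 to 0.39. LUM had 4.66, against 0 to 0.48. These were 3 of the 23 named collagen and matrix genes (13%), where 6.9% of all genes had such a sample and chance gives about 5%. With the authors' log2 values none of the 3 stood so far off, as the ratios in animals 1 to 4 were then 4.00, 2.01, -0.59 and -0.11 for COL5A1, 5.24, -0.60, 1.099 and 0.30 for COL6A1, and 5.2025, 0.0394, 3.66 and 0.0237 for LUM. Day 164 of pregnancy and animal 1 cannot be told apart.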

How the results depend on the processing

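No collagen or matrix gene was called except COL3A1 with the scanner's processed signals (1 gene) and COL3A1 and DCN with the authors' log2 values (2 genes). The number past 2-fold at an unadjusted p, in either direction, was 4 as reported, beside 10.4% of all genes. It was 9 without background correction (beside 13.2%), 9 with an offset of 16 (13.9%), 10 with the processed signals (14.7%) and 11 with the authors' values (16.1%). Each of these counts from 9 to 11 included COL17A1, which was higher in blood. The number was 12 (beside 14.2%) in a fit of the 8 arrays with a term for dye and a random block for animal. It was 0 without the filter on dim probes (beside 6.31%) and 0 without the replicate block that pairs the tissues of an animal (6.8%). By the methods' analysis of variance it was 0 too (4.17%). Leaving out 1 animal at a time gave 1 to 9, beside 5.56% to 13.6% of all genes. Over all genes the number called was 11 as reported, 164 with the processed signals, 219 with the authors' values, 773 with the random block and 0 by the methods' analysis of variance. The causes of these differences were not tested.

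Reading the scanner files as attached, an alternative added after the data were seen, turned the median ratio from 1.07 to -0.37. It gave 0 genes past 2-fold at an unadjusted p, beside 0.729% of all genes. The median was between 0.42 and 1.64 under the other alternatives, with 0.42 to 1.497 when 1 animal was left out. Single genes were not recomputed under that reading. Under the other settings, the direction turned in 5 of the 23 named genes, all with means near 0. ACTA2 was -0.24 with the processed signals, -0.22 with the authors' values and -0.21 to 0.33 when 1 animal was left out. COL6A2 was 0.14 with loess alone, 0.0941 with the processed signals, 0.0262 on the second slide and -0.31 to 0.28 with 1 animal left out. COL4A1 was 0.0844 on the first slide and -0.19 to 0.0324 with 1 animal left out. COL20A1 was -0.0886 with the authors' values, -0.0537 on the first slide and -0.34 to 0.32 with 1 animal left out. COL11A2 was -0.43 to 0.28 with 1 animal left out. Signals near background limit what can be said of genes dim in blood.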
